A study of Homo sapiens with 12 samples.

Results

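Gene expression was compared between the control cultures of both arms of a study of LHX2 in H9 cells, an established line of human embryonic stem cells. LHX2 encodes a LIM-homeobox transcription factor needed for eye and forebrain formation. The arrays were chosen by their labels. They are 2 arrays of shLuc cells, which carry a short hairpin RNA against luciferase, after 12 days of neural induction (shLuc ND12), and 2 arrays of cells from the doxycycline LHX2 arm that were labelled dox-minus and taken at day 16, together 4 of the 12 arrays of the series. The other 8 arrays hold 2 arrays each of shLHX2 ND12 cells (a hairpin against LHX2 in place of luciferase), dox-plus cells at day 16 (3 days of doxycycline, RNA taken 13 days later), dox-plus cells at day 4 and dox-minus cells at day 4. GFP is named in the series text as the control of the overexpression arm, but no label of these arrays names GFP, and the dox-minus cells are taken to belong to the LHX2 arm without the drug. Day, construct and arm differ together between shLuc ND12 and dox-minus day 16, and what each contributes cannot be told apart. The labels give neural induction for the hairpin arm and do not say how the doxycycline arm was cultured. Duplicates are described as biological, and none of the sources used here says whether a group rests on 1 clone.

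Embryonic stem cells that leave pluripotency switch off a small circuit of transcription factors around POU5F1, SOX2 and NANOG. When BMP and Nodal signals are low they tend to become neural ectoderm of anterior character, marked by PAX6 and by forebrain and eye field factors such as LHX2, RAX and SIX6. With BMP, WNT or Nodal signals they can also give mesoderm, endoderm, neural crest or surface ectoderm. HOX genes mark posterior identity in the neural tube and in mesoderm, and are little used in the forebrain. The lists below ask which of these states the cells of either group expressed.

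Values are normalized log2 signals of Illumina bead arrays, and a difference is shLuc ND12 minus dox-minus day 16 on that scale with the standard error (SE) of a limma fit over all 12 arrays. A gene was called at a Benjamini-Hochberg adjusted p under 0.05 over 15650 genes. For a gene that neither array of a group detected, only a bound (at least so many fold) is given, set on each dim array by the gene's own signal or by that array's dimmest detected signal, whichever is higher. Between 19050 and 20489 of 47227 probes were detected per array, and precision is limited by having 2 arrays a group. Only 14 genes differed over 2-fold between the 2 shLuc arrays, against 782 between the 2 dox-minus day 16 arrays, the loosest pair of the 6 groups, and the fit shares 1 estimate of spread among the groups. Slide and scan are not named in the files, so a batch cannot be told apart from the arm.

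Across all genes, limma called 3873 of 15650 genes between shLuc ND12 and dox-minus day 16, which is 24.7%. Of these, 1840 (11.8% of genes tested) were higher and 2033 (13.0%) were lower in shLuc ND12. These shares are the background for the counts of every list below. The median difference over all genes was 0.03. Large differences ran mostly downward: 45 called genes were over 4-fold higher and 230 over 4-fold lower in shLuc ND12, and over 16-fold the fitted values gave 1 higher and 22 lower. The count of calls was 1544 without shLuc replicate 1, 1885 without shLuc replicate 2 and 2423 without dox-minus replicate 1. The share of higher genes among the calls, 47.5%, was 60.8% when arrays were scaled to their medians, where the median over all genes lay 0.14 above 0. On detection alone, 458 genes were detected on both shLuc arrays and on neither dox-minus array, and 425 the other way round. Over all genes the shLuc ND12 arrays correlated at 0.968 to 0.972 with the dox-minus day 4 arrays and at 0.933 to 0.953 with the dox-minus day 16 arrays, a description with no test over arrays that share the day 4 pair. In these bulk RNA samples, fewer cells of a type and less RNA per cell cannot be told apart.

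**Figure D1:**
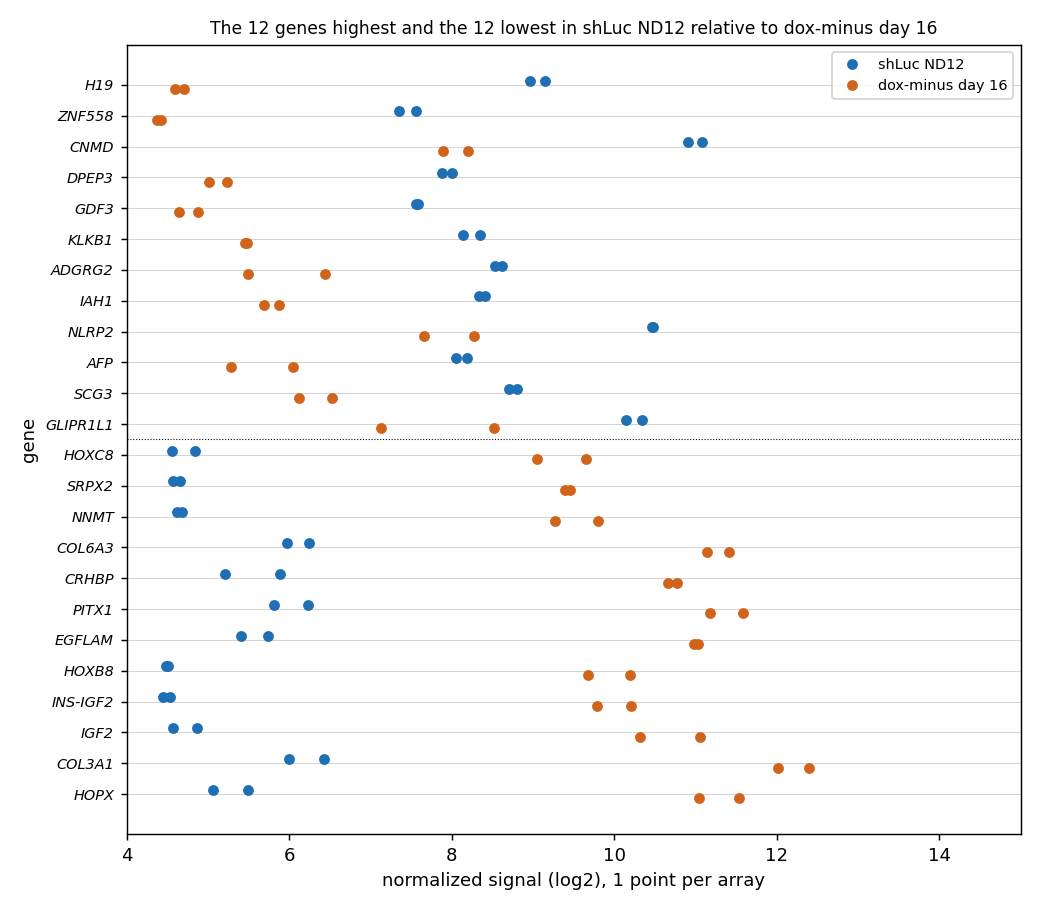
Normalized log2 signal (horizontal axis, 1 point per array) of the 12 called genes with the largest positive and the 12 with the largest negative difference, shLuc ND12 in blue above dox-minus day 16 in orange within each gene. The genes were chosen by their differences on these same arrays, so the separation of the groups follows from the choice. The gaps are wider among the lower genes, as for COL3A1 at -5.99.

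LHX2 itself, the gene both arms manipulate, was expressed in both control groups and was lower in the hairpin controls. Its log2 signal was 9.77 and 9.73 in shLuc ND12, against 12.19 and 11.92 in dox-minus day 16, and it was detected on neither dox-minus day 4 array. The groups did not overlap, and the difference was -2.31 ± 0.27 (limma adjusted p = 0.000124). PAX6, the paired-box factor of neuroectoderm and eye, read 7.55 and 7.76 in shLuc ND12, against 9.88 and 9.55 in dox-minus day 16 (-2.06 ± 0.22; limma adjusted p = 6.08e-05). It too was detected on neither day 4 array. Both neural genes were thus detected in each group and lower in shLuc ND12, while SOX2, shared by pluripotent and neural cells, did not pass the test (12.84 and 12.43 in shLuc ND12, against 12.11 and 12.12 in dox-minus day 16; limma adjusted p = 0.144).

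Pluripotency genes stood higher in shLuc ND12. Of 23 tested genes of that list, 15 were higher and 0 lower, with a median difference of 1.23, beside 11.8% of all genes called higher and a median of 0.03. Relative to the 2 dox-minus day 4 arrays, which both comparisons share, the list's median was 0.13 in shLuc ND12 and -1.39 in dox-minus day 16. The signals of its tested members summed to between 86917 and 93045 on the linear scale in shLuc ND12 and between 42985 and 50450 in dox-minus day 16. The shLuc ND12 samples, labelled as neural, thus held RNA of both PAX6 and the pluripotency genes, and so did dox-minus day 16. There, PAX6 was detected on both arrays, as were 20 of the 23 tested pluripotency genes. Bulk RNA does not show whether the same cells carried both.

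POU5F1, the POU factor at the core of the circuit, had log2 signals of 12.38 and 12.35 in shLuc ND12, against 11.09 and 11.19 in dox-minus day 16 (1.23 ± 0.22; limma adjusted p = 0.00219). NANOG, its homeodomain partner, had 9.90 and 9.68 in shLuc ND12, against 8.78 and 8.17 in dox-minus day 16 (1.31 ± 0.24; limma adjusted p = 0.00252). Both stayed detected on all 4 arrays, and at day 4 without the drug they read 12.70 and 13.14 for POU5F1 and 10.63 and 10.71 for NANOG. PRDM14, a transcriptional repressor that maintains pluripotency, was higher in shLuc ND12 by 2.11 ± 0.24, DNMT3B, the de novo DNA methyltransferase abundant in embryonic stem cells, by 2.13 ± 0.29, and POLR3G, an RNA polymerase III subunit of undifferentiated cells, by 2.32 ± 0.40. GDF3, a TGF-beta family ligand of pluripotent cells, was at least 4.04-fold higher, being detected on neither dox-minus day 16 array. Further called members were L1TD1 (2.05 ± 0.22), ZFP42 (1.47 ± 0.22) and UTF1 (1.45 ± 0.22). The RNA-binding protein gene LIN28A and the zinc finger gene SALL4, both still expressed in early neural cells, did not pass the test, at 0.39 ± 0.17 and 0.37 ± 0.19. Nor did DPPA2 (0.90 ± 0.39), DPPA4 (0.87 ± 0.30), LIN28B (0.60 ± 0.27), KLF4 (0.50 ± 0.26) and CD9 (0.16 ± 0.23), or SOX2, given above.

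The NANOG promoter is printed because NANOG is among the called genes, and POU5F1 and SOX2 are known to bind a joint element there. The stretch is the 250 bases before the RefSeq start of NANOG, chr12:7789152-7789401 on the plus strand of GRCh38.p14, from RefSeq's promoter table and not from the array files. Capitals mark the POU octamer core, ATGCAAA, found on the minus strand at -120 to -114 and so read here as its reverse complement, and the SOX core, ACAATG, on the plus strand at -112 to -107. Both strands were searched, and the motifs do not overlap.
NANOG: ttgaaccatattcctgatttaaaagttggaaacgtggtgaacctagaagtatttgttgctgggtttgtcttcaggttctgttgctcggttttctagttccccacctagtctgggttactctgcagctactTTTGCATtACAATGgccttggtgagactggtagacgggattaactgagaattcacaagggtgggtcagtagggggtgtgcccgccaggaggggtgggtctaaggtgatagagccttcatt
Of 27305 promoters of the same length, 3.98% hold ATGCAAA and 9.45% hold ACAATG on either strand. A match describes letters, not a bound site, and binding was not measured here.

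Neural progenitor genes were lower in shLuc ND12 as far as they differed. Of 24 tested members 8 were lower and 1 higher, with a median of -0.44, beside 13.0% of all genes called lower. The higher member was PROM1 (0.58 ± 0.19), a membrane glycoprotein of progenitors, and no member was higher when any 1 of the 4 arrays was left out. Relative to dox-minus day 4 the list's median was 0.51 in shLuc ND12 and 1.30 in dox-minus day 16, so both groups stood above day 4. NR2F1, a nuclear receptor of caudal and lateral cortex, had 5.67 and 5.48 in shLuc ND12, against 8.96 and 8.10 in dox-minus day 16 (-2.96 ± 0.26; limma adjusted p = 1.13e-05). HES4, a transcriptional repressor of the Notch-responsive HES family, had 10.15 and 10.06 in shLuc ND12, against 12.22 and 11.61 in dox-minus day 16 (-1.81 ± 0.25). Further lower members were DACH1 (-1.58 ± 0.24) and NR2F2 (-1.45 ± 0.26). The 15 uncalled members included the general neural genes SOX3, NES and SOX11, at -0.44 ± 0.25, -0.17 ± 0.23 and -0.06 ± 0.23. SOX1, POU3F3 and ZIC1 were not tested because no group detected them on both arrays.

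HES5, the Notch effector that keeps neural progenitors undifferentiated, gave the deepest difference of the neural lists. It had log2 signals of 6.61 and 6.54 in shLuc ND12, against 11.12 and 10.87 in dox-minus day 16 (-4.42 ± 0.22; limma adjusted p = 2.26e-07). Its day 4 level without the drug was 5.93 and 6.09, close to that of shLuc ND12. HES5 is a direct target of the Notch cofactor RBPJ, so its promoter is printed with the RBPJ core GTGGGAA in capitals. The stretch, from RefSeq's table, is chr1:2530264-2530513 on the minus strand of GRCh38.p14, and the core occurs at -224 to -218 as its reverse complement and at -81 to -75 on the strand printed.
HES5: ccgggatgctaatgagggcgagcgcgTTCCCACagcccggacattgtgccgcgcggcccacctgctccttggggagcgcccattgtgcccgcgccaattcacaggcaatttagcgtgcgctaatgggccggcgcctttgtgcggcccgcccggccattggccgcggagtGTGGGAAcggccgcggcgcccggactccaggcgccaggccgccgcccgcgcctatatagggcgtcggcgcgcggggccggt
Of the 27305 promoters, 5.46% hold GTGGGAA on either strand. The match is a description and says nothing of whether RBPJ was bound.

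Among forebrain and eye field genes 7 of 18 tested members were lower and 1 was higher in shLuc ND12 (median -0.57, or -0.40 with undetected genes at their bound). Both counts stand beside 13.0% of all genes called lower and 11.8% called higher. The higher member, HESX1, a homeobox repressor of anterior neural plate that pluripotent cells also express, stood at 1.72 ± 0.48, and no member was higher without either shLuc array or without the filter on detection, while 3 were higher with median scaling and 3 with no background correction. Relative to dox-minus day 4 the median was 1.28 in shLuc ND12 and 1.71 in dox-minus day 16. RAX, a homeobox gene needed for eye formation, had 8.13 and 8.16 in shLuc ND12, against 11.19 and 10.30 in dox-minus day 16 (-2.60 ± 0.29; limma adjusted p = 7.64e-05). SIX6, a homeobox gene of retina and hypothalamus, had 5.42 and 5.96 in shLuc ND12, against 9.17 and 8.53 in dox-minus day 16 (-3.16 ± 0.25; limma adjusted p = 4.40e-06). RAX was detected on both shLuc arrays and SIX6 on 1. OTX2, a homeobox gene of anterior neuroectoderm, read 11.09 and 10.72 in shLuc ND12, against 10.42 and 10.43 in dox-minus day 16, a difference of 0.48 ± 0.20 that was not called (limma adjusted p = 0.0972). The kept probes of OTX2 disagreed, since a dimmer one gave -1.08 (limma adjusted p = 0.0128) and the mean of its kept probes gave -0.13. SIX3, read at 8.83 and 8.88 in shLuc ND12, against 9.56 and 9.09 in dox-minus day 16, did not pass either.

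Of 6 tested genes of cortical hem and choroid plexus 4 were lower and 0 higher (median -1.29), led by AQP1, a water channel of choroid plexus and endothelium, at least 3.61-fold lower, and FOLR1, the folate receptor of choroid epithelium, at -1.75 ± 0.22. RSPO3, a secreted WNT enhancer, was at -1.51 ± 0.19. The list's lower count stands beside 13.0% of all genes called lower. TTR, the transthyretin gene that marks choroid plexus, and the hem genes LMX1A, WNT8B and WNT3A were not tested. Of the 2 tested pigment epithelium and photoreceptor genes neither was called, the larger difference being -0.65 ± 0.30 for SERPINF1, a secreted factor of that epithelium.

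Tested HOX genes were mostly lower in shLuc ND12. Of 39 HOX genes on the array 11 were tested, and 9 of these were lower and 0 higher in shLuc ND12 (median -2.56, or -1.97 with undetected genes at their bound), beside 13.0% of all genes called lower. A gene entered the test if both arrays of any group detected it. Of the 11, 10 were detected on both dox-minus day 16 arrays and 4 on both shLuc arrays. HOXB8 and HOXC8 were detected in dox-minus day 16 and in no other group. Their direction thus follows from that filter, and the list's lower count is not independent evidence of a difference. HOXB8, a posterior gene of the HOXB cluster on chromosome 17, had 4.51 and 4.48 in shLuc ND12, detected on neither array, against 10.19 and 9.68 in dox-minus day 16, so it was at least 21.2-fold lower (limma adjusted p = 1.87e-08). HOXC8, its counterpart of the HOXC cluster on chromosome 12, was at least 14.1-fold lower, at 4.85 and 4.56 in shLuc ND12, against 9.65 and 9.05 in dox-minus day 16. HOXB5 had 6.21 and 5.40 in shLuc ND12, against 10.73 and 10.15 in dox-minus day 16 (-4.64 ± 0.30), and HOXB2, a gene of hindbrain and more posterior tissue, was lower, at -3.44 ± 0.23 on the log2 scale.

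The rest of the called HOX genes are given to complete the list. HOXC6 was lower, at -2.56 ± 0.36, and HOXB6 at -1.97 ± 0.24 on the log2 scale in shLuc ND12. HOXB7 was at least 3.47-fold lower, HOXB3 at least 1.91-fold and HOXB4 at least 1.39-fold. The called genes were thus of the HOXB and HOXC clusters, and the tested gene of HOXA, HOXA6, did not pass (limma adjusted p = 0.154), nor did HOXC13 (-0.33 ± 0.24). Relative to dox-minus day 4, the list's median was -0.02 in shLuc ND12 and 2.85 in dox-minus day 16. HOX genes mark posterior neural tube and trunk mesoderm alike, and the arrays do not say which cells carried them. In the list of midbrain, hindbrain and ventral neural tube genes 1 of 9 tested was higher and 0 lower, a share near the 11.8% of all genes called higher. The member was OLIG2, a basic helix-loop-helix factor of ventral progenitors. It was detected on neither dox-minus day 16 array and was at least 2.31-fold higher in shLuc ND12. OLIG2 had 6.74 and 6.79 in shLuc ND12, below its 7.34 and 7.38 at dox-minus day 4. It was detected on neither dox-plus day 4 array and had 6.98 and 7.14 in dox-plus day 16. In that list 1 member was lower without dox-minus replicate 2. EN1, EN2, PAX2, NKX2-2 and SHH were among the 10 members not tested.

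**Figure D2:**
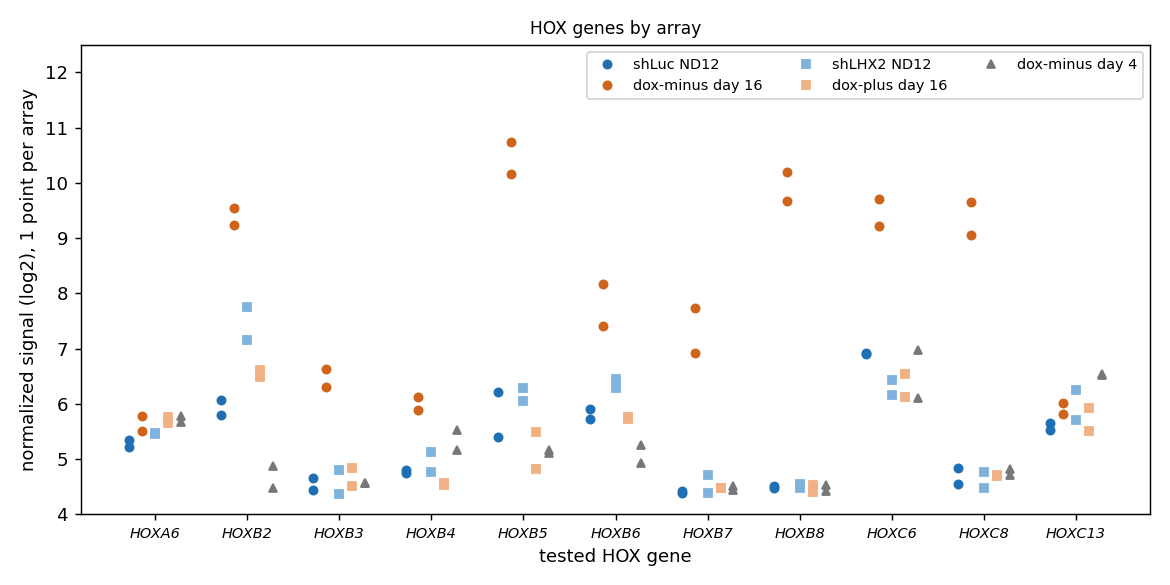
Normalized log2 signal of the 11 tested HOX genes, 1 point per array, for shLuc ND12 and dox-minus day 16 (filled circles), shLHX2 ND12 and dox-plus day 16 (squares) and dox-minus day 4 (triangles). For the 9 called genes the 2 dox-minus day 16 points lie above both shLuc points and above every other array drawn.

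Mesenchyme and matrix genes were lower in shLuc ND12 almost throughout. Of 23 tested members 21 were lower in shLuc ND12 and 0 higher (median -2.22), beside 13.0% of all genes called lower. The summed linear signal of the tested members was between 14800 and 15293 in shLuc ND12 and between 70484 and 72456 in dox-minus day 16. COL3A1, a fibrillar collagen of loose connective tissue, had 6.43 and 6.003 in shLuc ND12, against 12.01 and 12.40 in dox-minus day 16 (-5.99 ± 0.25; limma adjusted p = 4.59e-08). COL6A3, a collagen VI chain, had 5.97 and 6.24 in shLuc ND12, against 11.14 and 11.41 in dox-minus day 16 (-5.17 ± 0.20; limma adjusted p = 2.37e-08). DCN, the proteoglycan decorin of fibroblasts, had 5.92 and 5.78 in shLuc ND12, against 9.70 and 10.13 in dox-minus day 16 (-4.07 ± 0.24; limma adjusted p = 5.75e-07). DCN and COL3A1 were detected on neither dox-minus day 4 array.

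COL5A1, a chain of the collagen that nucleates fibrils, was lower, at -3.57 ± 0.26 on the log2 scale in shLuc ND12. To complete the list, LUM, a small leucine-rich proteoglycan, was lower, at -3.53 ± 0.37, LOX, the collagen cross-linking enzyme, at -3.46 ± 0.29, and PDGFRB, the PDGF receptor of pericytes and fibroblasts, at -2.22 ± 0.24. FN1, which encodes fibronectin, was detected on neither shLuc array by any probe and was at least 6.46-fold lower. POSTN and THY1 were the uncalled members, at -0.83 ± 0.30 and 0.55 ± 0.22. Relative to dox-minus day 4, the list's median was -0.39 in shLuc ND12 and 1.76 in dox-minus day 16.

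Regulators of lateral, cardiac and paraxial mesoderm went the same way, with 16 of 21 tested members lower and 0 higher (median -1.42, or -1.15 with undetected genes at their bound). Their lower count stands beside 13.0% of all genes called lower. PITX1, a homeobox gene of hindlimb and anterior ectoderm, had 5.82 and 6.24 in shLuc ND12, against 11.59 and 11.18 in dox-minus day 16 (-5.36 ± 0.29; limma adjusted p = 3.81e-07). PDGFRA, the PDGF receptor of paraxial mesoderm and mesenchyme, had 6.13 and 6.05 in shLuc ND12, against 10.04 and 10.20 in dox-minus day 16 (-4.03 ± 0.23). APLNR, a receptor for apelin on early mesoderm cells, was lower, at -3.44 ± 0.18, and was detected on neither dox-minus day 4 array. To complete the list, the forkhead gene FOXF1 of lateral mesoderm was at least 4.73-fold lower, the somite gene MEOX1 at least 3.70-fold lower, GATA4 at least 1.57-fold lower, and HAND1, a basic helix-loop-helix factor of lateral mesoderm and amnion, was at -2.79 ± 0.37. Without dox-minus replicate 1 the list had 1 higher member. Relative to dox-minus day 4 the list's median was -0.02 in shLuc ND12 and 1.57 in dox-minus day 16.

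Contractile genes followed, with 10 of 14 tested cardiac and smooth muscle genes lower and 0 higher (median -1.04). That lower count stands beside 13.0% of all genes called lower. ACTC1, the cardiac alpha-actin, had 11.41 and 11.24 in shLuc ND12, against 14.23 and 14.19 in dox-minus day 16 (-2.88 ± 0.17; limma adjusted p = 5.75e-07). ACTA2, the smooth muscle alpha-actin, had 10.11 and 10.24 in shLuc ND12, against 12.79 and 13.08 in dox-minus day 16 (-2.76 ± 0.18; limma adjusted p = 1.24e-06). MYL4 and MYL7, myosin light chains of the atrium, were lower, at -2.98 ± 0.21 and -2.43 ± 0.22 on the log2 scale. ACTC1 read 13.00 and 13.11 at dox-minus day 4, above shLuc ND12 and below dox-minus day 16. Over the list, the median relative to day 4 was -1.03 in shLuc ND12 and 0.23 in dox-minus day 16. MYH7, MYL2 and DES, which mark ventricular or mature muscle, were not tested.

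Of 10 tested endothelium and blood genes 6 were lower and 0 higher in shLuc ND12 (median -0.70), beside 13.0% of all genes called lower. The count was 3 without either shLuc array. LMO2, a LIM-only cofactor of blood and endothelial precursors, was lower, at -2.07 ± 0.19, and ENG, the TGF-beta coreceptor endoglin, was at least 1.33-fold lower. The defining genes PECAM1, CDH5, TAL1 and the globins HBE1, HBZ and HBG1 were not tested, since no group detected them on both arrays.

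Genes of the primitive streak and of endoderm did not follow the mesoderm lists. Of 6 tested streak and mesendoderm genes 4 were higher and 1 lower in shLuc ND12 (median 1.18, or 0.82 with undetected genes at their bound). The lower share is near the 13.0% of all genes called lower, and 11.8% were called higher. TBXT, the T-box factor brachyury of the streak, had 6.12 and 6.05 in shLuc ND12 and was detected on neither dox-minus array, at least 1.44-fold higher (limma adjusted p = 0.0004). CER1, the secreted antagonist of Nodal and BMP, had 6.77 and 7.11 in shLuc ND12, against 5.45 and 5.66 in dox-minus day 16 (1.39 ± 0.25), and SP5, a WNT target, was higher by 1.34 ± 0.25. The lower member was LHX1, a LIM-homeobox gene of head mesoderm and kidney, at least 1.24-fold lower, and no member was lower without dox-minus replicate 1 or either shLuc array. CER1 read 6.94 and 7.25 at dox-minus day 4, while TBXT and SP5 were detected on neither dox-minus day 4 array. MIXL1, GSC and TBX6 were not tested.

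In the endoderm, yolk sac and liver list 3 of 8 tested genes were higher and 1 lower (median 0.16), and the higher count was 1 without shLuc replicate 1, without dox-minus replicate 1, with no background correction, with a larger offset, from the series value table and with the compared arrays fitted alone. AFP, the fetal liver and yolk sac alpha-fetoprotein, had 8.06 and 8.19 in shLuc ND12, against 5.28 and 6.05 in dox-minus day 16 (2.46 ± 0.24; limma adjusted p = 3.18e-05). APOA1, an apolipoprotein of liver and gut, went down, with 7.39 and 7.58 in shLuc ND12, against 9.37 and 9.12 in dox-minus day 16 (-1.76 ± 0.32; limma adjusted p = 0.00226). The members thus moved in opposite directions, and SOX17, HNF4A and TF were not tested. Their day 4 levels without the drug were 9.10 and 9.14 for AFP and 7.23 and 6.48 for APOA1. The list's lower count is near the 13.0% of all genes called lower, and 11.8% were called higher.

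Surface ectoderm and trophoblast genes were lower in 7 and higher in 3 of 17 tested (median -0.36), and the higher count was 1 without shLuc replicate 1. KRT17, a basal keratin, was lower, at -2.21 ± 0.32, GATA2, a zinc finger factor of trophoblast and blood, at -1.74 ± 0.27, and KRT8, a simple epithelial keratin, at -1.46 ± 0.26. TP63, the p53 family regulator of stratified epithelium, was detected on neither shLuc array and was at least 2.13-fold lower. The epithelial cadherin gene CDH1, expressed by pluripotent cells as well, stood at 1.26 ± 0.24, and the other higher members DLX5 and TFAP2C at 1.13 ± 0.27 and 0.84 ± 0.20. Both counts stand beside 13.0% of all genes called lower and 11.8% called higher.

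Neural crest and placode genes split evenly, 3 higher and 3 lower of 15 tested (median -0.10), and the higher count was 1 without either shLuc array, with no background correction, from the series value table and with the compared arrays fitted alone. SNAI2, a zinc finger repressor of migrating crest and of mesenchyme, had 6.87 and 6.54 in shLuc ND12, against 9.94 and 10.00 in dox-minus day 16 (-3.27 ± 0.21; limma adjusted p = 7.97e-07). MSX1, a BMP-responsive homeobox gene, was lower, at -2.37 ± 0.34, while ERBB3, a neuregulin receptor of crest and glia, was higher by 1.09 ± 0.21. FOXD3, a forkhead gene of crest and of stem cells, was also higher, at 0.92 ± 0.26. The counts of this list stand beside 11.8% of all genes called higher and 13.0% called lower. SOX10, the defining crest gene, did not pass the test, at 5.56 and 5.71 in shLuc ND12, against 5.96 and 5.33 in dox-minus day 16, and was detected on 1 of the dox-minus arrays.

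Neuron genes also went both ways, with 6 higher and 5 lower of 20 tested (median 0.15). The higher count was 2 without shLuc replicate 1, 1 without shLuc replicate 2 and 3 with no background correction, and the lower count was 3 without shLuc replicate 2. NEUROG2, a proneural factor of committed progenitors, had 6.16 and 5.71 in shLuc ND12, against 8.08 and 8.02 in dox-minus day 16 (-2.12 ± 0.25; limma adjusted p = 0.000121). PRPH, the intermediate filament of peripheral neurons, and STMN2, a growth cone protein, were lower, at -1.55 ± 0.21 and -1.23 ± 0.23, while NEFM, a neurofilament, was higher by 1.73 ± 0.35. STMN2 had read 9.18 and 9.58 at dox-minus day 4, above both groups. Among the higher genes were GAP43, a growth cone protein, at 1.10 ± 0.26 and DCX, the microtubule protein of young neurons, at 0.87 ± 0.18. Of 4 tested glia genes 2 were lower and 1 higher (median -0.26), counts that were 0 lower without shLuc replicate 1, with median scaling or with the compared arrays fitted alone, 1 lower without any other of the 4 arrays, and 0 higher without either shLuc array or dox-minus replicate 2. GFAP and AQP4, which mark astrocytes, were not tested. For the neuron and glia lists the background is 11.8% of all genes called higher and 13.0% called lower.

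**Figure D3:**
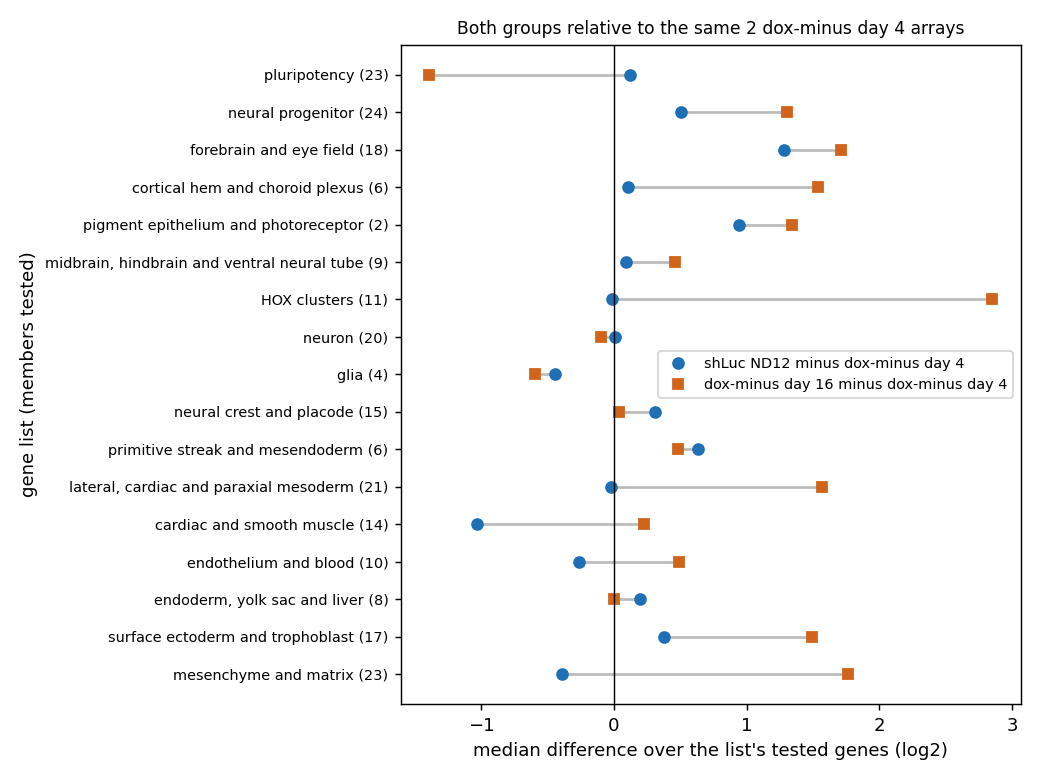
Median log2 difference of each cell type list from the 2 dox-minus day 4 arrays (horizontal axis), for shLuc ND12 (blue circles) and dox-minus day 16 (orange squares), with the number of tested members in brackets. Pluripotency stands at 0.13 in shLuc ND12 and -1.39 in dox-minus day 16, and HOX clusters at -0.02 in shLuc ND12 and 2.85 in dox-minus day 16. The values share the day 4 arrays and carry no test.

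In the Nodal pathway 6 of 8 members were higher in shLuc ND12 and 1 was lower (median 1.21). The lower share is near the 13.0% of all genes called lower, and 11.8% were called higher. NODAL, the ligand, had 7.18 and 7.25 in shLuc ND12 and was detected on neither dox-minus array, at least 3.16-fold higher (limma adjusted p = 0.000231). LEFTY1, the feedback antagonist that Nodal induces, had 7.67 and 7.68 in shLuc ND12 and was at least 4.34-fold higher (limma adjusted p = 0.00157). GDF3 and CER1, given above, belong to this list too. To complete the list, the coreceptor gene CRIPTO was higher by 1.04 ± 0.33 and the Nodal-effector forkhead gene FOXH1 by 0.66 ± 0.20, while LEFTY2, another antagonist, stood at 0.02 ± 0.38.

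In the BMP pathway 8 of 15 tested members were lower and 0 higher (median -0.69, or -0.58 with undetected genes at their bound). That lower count stands beside 13.0% of all genes called lower. BMP4, the ligand that directs ectoderm to epidermis and mesoderm to ventral fates, had 10.02 and 9.88 in shLuc ND12, against 12.12 and 11.86 in dox-minus day 16 (-2.04 ± 0.20; limma adjusted p = 3.52e-05). BMPER, a secreted BMP modulator, was detected on neither shLuc array and was at least 7.92-fold lower. Of the genes BMP induces as feedback, SMAD6, the inhibitory SMAD, was lower, at -2.43 ± 0.29, and BAMBI, a decoy receptor, at -2.18 ± 0.24. The ligand genes BMP2 and BMP7 and the feedback gene SMAD7 did not pass. The ID genes, which many cells use as BMP targets, were divided. ID3 was called lower, while ID1 and ID2, at -0.58 ± 0.24 and -0.69 ± 0.26, and ID4 did not pass. The remaining called members, all lower, were NOG, SMAD9 and FST.

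In the WNT pathway 7 of 18 tested members were lower and 2 higher (median -0.43), and the counts were 4 lower without shLuc replicate 2 and 1 higher without either shLuc array or dox-minus replicate 1. WNT5B, a noncanonical ligand, had 6.33 and 6.80 in shLuc ND12, against 9.10 and 8.59 in dox-minus day 16 (-2.28 ± 0.26; limma adjusted p = 0.000105). DKK1, a secreted antagonist, was lower, at -1.54 ± 0.24. The higher members were SP5, given above, and the antagonist gene WIF1, at least 1.21-fold higher. Their share is near the 11.8% of all genes called higher, and 13.0% of all genes were called lower. AXIN2, a general target of the canonical pathway, did not pass the test (0.38 ± 0.20).

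Of 15 tested Notch pathway genes 5 were lower and 0 higher (median -0.44), with 3 lower without shLuc replicate 1 and 8 without dox-minus replicate 2. Beside HES5, the effectors HEY1 and HEY2 were lower, at -2.30 ± 0.25 and -1.29 ± 0.25. HES1, DLL1 and DLL3 did not pass, at -0.83 ± 0.28, -0.44 ± 0.28 and -0.78 ± 0.27. FGF feedback genes were lower in 5 and higher in 1 of 12 tested (median -0.62), and the counts were 2 lower without shLuc replicate 2 and 0 higher without either shLuc array or dox-minus replicate 1. ETV5, an ETS factor that FGF induces, was lower, at -1.65 ± 0.21, and SPRED2, an inhibitor of the same cascade, at -1.40 ± 0.20. Beside the Notch and FGF counts, 13.0% of all genes were called lower and 11.8% higher.

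Of 12 tested retinoic acid genes 5 were lower and 0 higher (median -0.46), with 3 lower without shLuc replicate 1. ALDH1A1, a retinaldehyde dehydrogenase of dorsal retina, and CYP26B1, which degrades retinoic acid, were detected on neither shLuc array, ALDH1A1 being at least 4.61-fold lower and CYP26B1 at least 2.12-fold. ALDH1A1 read 5.27 and 5.11 in shLuc ND12, against 7.05 and 8.42 in dox-minus day 16, so the dox-minus arrays themselves lay apart. The background for this list's lower count is 13.0% of all genes.

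**Figure D4:**
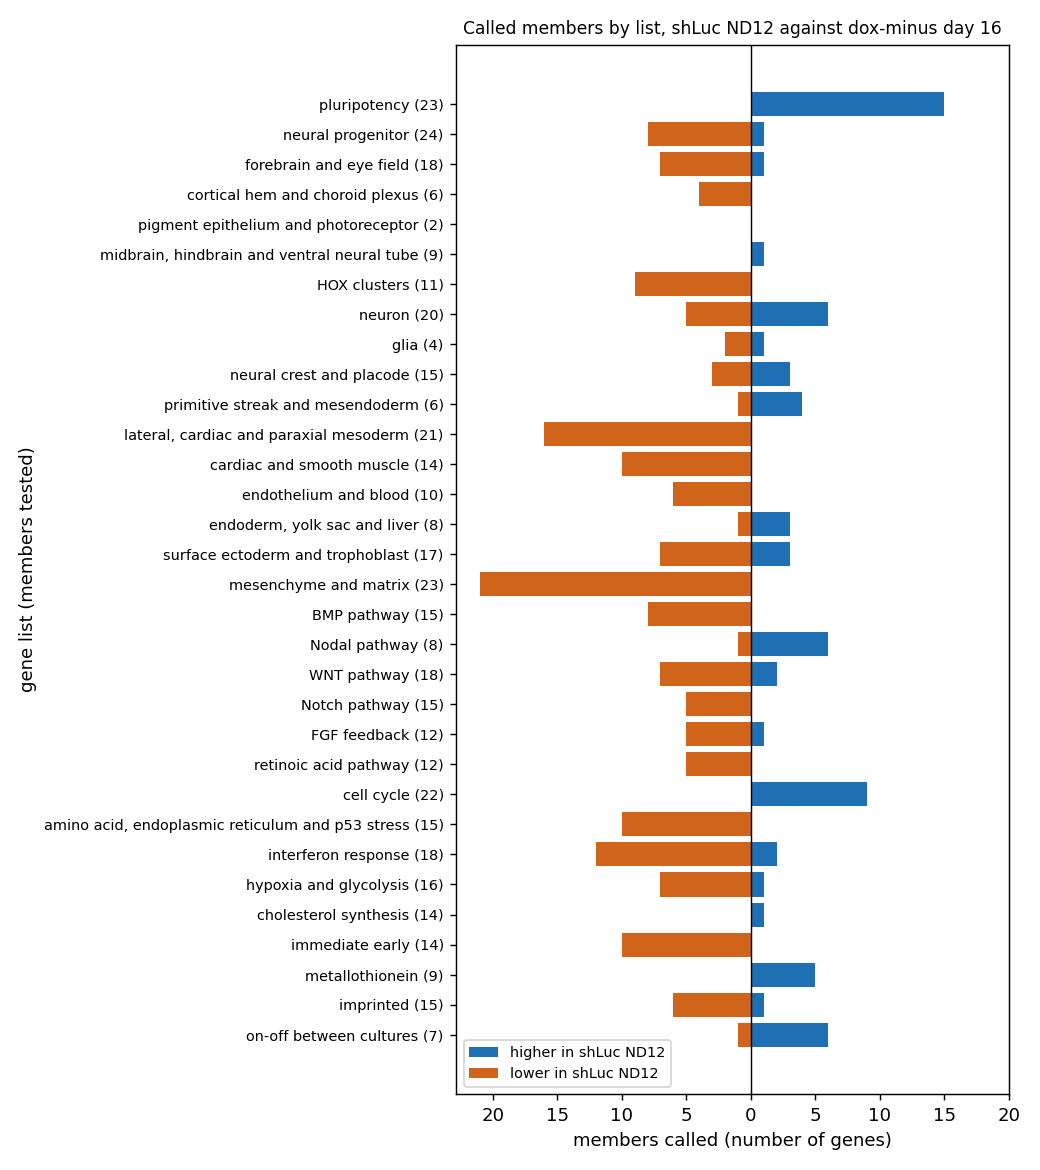
Number of called members of each of the 32 gene lists (tested members in brackets), higher in shLuc ND12 to the right in blue and lower to the left in orange. Mesenchyme and matrix has 21 lower and 0 higher, lateral, cardiac and paraxial mesoderm 16 and 0, and pluripotency 15 higher and 0 lower. Over all genes 11.8% were called higher and 13.0% lower.

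Among genes of cell state, those of replication and mitosis were higher in shLuc ND12 in 9 and lower in 0 of 22 tested (median 0.50). That higher count stands beside 11.8% of all genes called higher. The count was 3 without either shLuc array, 4 without dox-minus replicate 1 and 5 with the compared arrays fitted alone. KIF11, a mitotic kinesin, had 10.27 and 9.99 in shLuc ND12, against 8.89 and 8.95 in dox-minus day 16 (1.20 ± 0.18; limma adjusted p = 0.000524), and RRM2, a ribonucleotide reductase subunit, was higher by 1.14 ± 0.24. CDKN1A, the cyclin-dependent kinase inhibitor p21, which p53 induces, went the other way. Its log2 signal was 9.88 and 10.22 in shLuc ND12, against 13.51 and 13.55 in dox-minus day 16 (-3.49 ± 0.19; limma adjusted p = 3.81e-07), and 11.97 and 12.04 at dox-minus day 4. It belongs to the list of amino acid, endoplasmic reticulum and p53 stress, where 10 of 15 were lower and 0 higher (median -0.82), with 5 lower without shLuc replicate 1. Also in it, DDIT4, a stress-induced inhibitor of mTOR, was lower, at -1.79 ± 0.21, the p53 target GADD45A at -1.71 ± 0.32, and TRIB3, a target of ATF4, at -1.64 ± 0.19. The background for that list's lower count is 13.0% of all genes.

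Of 14 tested immediate early genes 10 were lower in shLuc ND12 and 0 higher (median -1.06), beside 13.0% of all genes called lower. IER3, an early gene of cell survival, had 9.82 and 9.90 in shLuc ND12, against 12.16 and 11.75 in dox-minus day 16 (-2.10 ± 0.28; limma adjusted p = 0.000269). DUSP1, a phosphatase of stress kinases, was lower, at -1.79 ± 0.26, FOSB at -1.57 ± 0.28, and JUNB was at least 2.94-fold lower, while EGR1, IER2, KLF2 and MYC did not pass.

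Interferon response genes were lower in 12 and higher in 2 of 18 tested (median -0.85), with 6 lower without shLuc replicate 1 and 0 higher without either shLuc array or dox-minus replicate 1 or with the compared arrays fitted alone. IFI6, an interferon-induced membrane protein, had 8.66 and 8.66 in shLuc ND12, against 11.66 and 11.36 in dox-minus day 16 (-2.85 ± 0.23; limma adjusted p = 4.98e-06). MX1, an antiviral GTPase, was lower, at -1.83 ± 0.21, the ubiquitin-like ISG15 at -1.69 ± 0.30, and IRF9, a subunit of the interferon-activated transcription complex, at -1.47 ± 0.21. Among the higher members was PSMB8, an immunoproteasome subunit, at 0.73 ± 0.19. The share of higher members is near the 11.8% of all genes called higher, and 13.0% were called lower.

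Of 16 tested hypoxia and glycolysis genes 7 were lower and 1 higher (median -0.52). The lower count was 2 without either shLuc array and 4 without dox-minus replicate 1, and also 2 with median scaling, from the series value table and with the compared arrays fitted alone. The higher member was EGLN3, an oxygen-sensing prolyl hydroxylase, at 1.09 ± 0.24, and no member was higher without dox-minus replicate 1 or shLuc replicate 1. NDRG1, a hypoxia-induced gene, was lower, at -2.57 ± 0.28, and VEGFA, the endothelial growth factor, at -1.29 ± 0.23, whereas the glycolytic enzyme genes LDHA and PGK1 did not pass, at 0.62 ± 0.39 and 0.10 ± 0.29. Of 14 cholesterol synthesis genes 1 was higher and 0 lower, and 3 were higher without dox-minus replicate 2. In the metallothionein list 5 of 9 tested members were higher and 0 lower (median 0.88, or 0.67 with undetected genes at their bound). It holds genes of metallothioneins, which bind zinc and copper, and the zinc exporter gene SLC30A1, which was not called. MT1H had 10.02 and 10.29 in shLuc ND12, against 8.10 and 8.02 in dox-minus day 16 (2.09 ± 0.20), MT1G was higher by 1.72 ± 0.20 and MT1M at least 1.40-fold higher. The other kept probe of MT1H gave 0.33 and was not called (limma adjusted p = 0.325). The metallothionein genes are near-identical copies on chromosome 16, and their probes may share signal. The hypoxia, cholesterol and metallothionein counts stand beside 11.8% of all genes called higher and 13.0% called lower.

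Imprinted genes and genes that differ between stem cell cultures held several of the leading values. For the imprinted list the background is 11.8% of all genes called higher and 13.0% called lower. H19, an imprinted non-coding RNA, had log2 signals of 8.96 and 9.15 in shLuc ND12 and was detected on neither dox-minus array (4.71 and 4.60), at least 11.3-fold higher (limma adjusted p = 5.75e-07). IGF2, its neighbour on chromosome 11 and a fetal growth factor expressed from the other parental copy, was detected on neither shLuc array (4.87 and 4.57) and had 11.05 and 10.32 in dox-minus day 16, at least 35.6-fold lower (limma adjusted p = 2.71e-07). INS-IGF2, a read-through transcript that overlaps IGF2, was at least 22.1-fold lower, and its signal cannot be told apart from that of IGF2. At dox-minus day 4, H19 was detected at 6.90 and 6.65 and IGF2 on 1 of 2 arrays, while at dox-plus day 4 neither gene was detected on any array (4.43 and 4.42 for H19). NNAT, the imprinted neuronatin gene of embryonic brain, had 7.75 and 8.01 in shLuc ND12, against 12.46 and 12.19 in dox-minus day 16 (-4.45 ± 0.27), and DLK1, an imprinted Notch-related ligand, was lower, at -2.37 ± 0.24. Of 15 tested imprinted genes 6 were lower and 1 higher (median -0.39), and 2 were higher without dox-minus replicate 2.

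The list of genes that switch between cultures was chosen from these data, so its direction is not independent evidence. Of its 7 members 6 were higher and 1, SLC35E3, was lower in shLuc ND12 (median 2.39, or 1.90 with undetected genes at their bound). ZNF558, a zinc finger gene, had 7.56 and 7.36 in shLuc ND12 and was detected on neither dox-minus array, at least 3.74-fold higher. IAH1, an esterase family gene, had 8.34 and 8.41 in shLuc ND12, against 5.69 and 5.87 in dox-minus day 16 (2.59 ± 0.22). NLRP2, a maternal-effect gene, was higher by 2.50 ± 0.27 and TMSB15A, a beta-thymosin with a near-identical copy, by 2.39 ± 0.25. All 4 were on at dox-minus day 4, with 6.90 and 7.18 for ZNF558 and 8.75 and 9.26 for IAH1. At dox-plus day 4 they were low: ZNF558 was detected on neither array, IAH1 read 5.70 and 6.14, NLRP2 6.75 and 7.57, and TMSB15A 5.85 and 5.60, detected on 1 of 2 arrays. ZNF558 and IAH1 were thus low in dox-minus day 16 and in dox-plus day 4, and not in dox-minus day 4. In dox-minus day 16 NLRP2 read 7.66 and 8.28 and TMSB15A 8.22 and 8.97. These values lay below dox-minus day 4 and above dox-plus day 4. All 4 genes were detected on both dox-plus day 16 arrays, with 8.56 and 8.06 for ZNF558 and 13.52 and 13.24 for TMSB15A.

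The remaining leading genes lie outside the lists. HOPX, an atypical homeodomain gene of heart and of several stem cells, was detected on neither shLuc array (5.49 and 5.06) and had 11.53 and 11.05 in dox-minus day 16, at least 54.1-fold lower (limma adjusted p = 1.87e-08). EGFLAM, the matrix protein pikachurin of retina, had 5.74 and 5.40 in shLuc ND12, against 10.98 and 11.03 in dox-minus day 16 (-5.44 ± 0.21). CRHBP, the corticotropin-releasing hormone binding protein, had 5.89 and 5.21 in shLuc ND12, against 10.67 and 10.77 in dox-minus day 16 (-5.17 ± 0.22). Both were detected on 1 of 2 shLuc arrays. Another kept probe gave smaller fitted differences for these genes, -2.47 for HOPX, -3.40 for EGFLAM and -1.97 for CRHBP, all called. NNMT, the nicotinamide methyltransferase, was at least 16.0-fold lower and SRPX2, a secreted sushi-repeat protein, at least 14.9-fold lower. Upward, CNMD, the cartilage protein chondromodulin, had 11.09 and 10.91 in shLuc ND12, against 8.20 and 7.89 in dox-minus day 16 (2.95 ± 0.19; limma adjusted p = 7.98e-07). DPEP3, a dipeptidase, was at least 5.22-fold and KLKB1, plasma prekallikrein, at least 6.43-fold higher. SCG3, a secretory granule protein, was higher by 2.43 ± 0.22, the adhesion receptor gene ADGRG2 by 2.61 ± 0.33, and GLIPR1L1 by 2.42 ± 0.37. All 6 of these higher genes were detected on both dox-minus day 4 arrays and on both dox-plus day 4 arrays.

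The value of a gene is that of its brightest kept probe, and probes of a gene did not always give the same size. For 15 of 44 named genes with several kept probes, another kept probe lay over 1.5-fold from the one used, and OTX2 was the gene whose probes differed in sign. Besides the genes already given, the other probes gave smaller fitted differences of -2.54 for DCN, -2.86 for PDGFRA, -1.37 for HEY1, -4.83 for IGF2 and 0.94 and 1.07 for POLR3G, all called. The other probes of TFAP2A gave -1.03, which was called, and -0.49 and -0.48, which were not called. They were larger for AQP1, at -3.62, and for RSPO2, a WNT enhancer, at -2.58. The remaining probes of MBP, at -0.39 and -0.37, and of ALDH1A3, at -0.79, were not called.

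The same arm difference could be taken in the other 4 late arrays, shLHX2 ND12 against dox-plus day 16, which share no array with the controls but differ in LHX2 as well. There limma called 4549 of 15650 genes (29.1%), 2305 higher (14.7%) and 2244 lower (14.3%) in shLHX2 ND12. Among the genes higher in shLuc ND12, 845 were also higher there, 45.9% of the control list and 36.7% of the other. Among the lower genes, 882 were also lower there, 43.4% of the control list and 39.3% of the other. Opposite calls were 36 of the higher and 85 of the lower genes, which is 1.96% and 4.18%. Over genes, which are not independent replicates, the differences correlated at 0.468. Limma's test of the difference between the contrasts called 1569 genes (10.0%), 717 positive (4.58%) and 852 negative (5.44%). Of its calls 45.7% were positive. Scaling to medians made that share 60.7%, with the median of all genes at 0.14, and the series value table without normalization made it 69.7%, with that median at 0.17. That count was 671 without shLuc replicate 1, 762 without shLuc replicate 2, 779 without shLHX2 replicate 2, 694 without dox-plus replicate 1, 1001 without dox-minus replicate 1 and 2642 without dox-minus replicate 2. The count of 4549 was 2623 without dox-plus replicate 1 and 2772 without shLHX2 replicate 2. Its share of higher calls was 50.7%, and 32.0% from the series value table without normalization, with the median of all genes at -0.10.

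**Figure D5:**
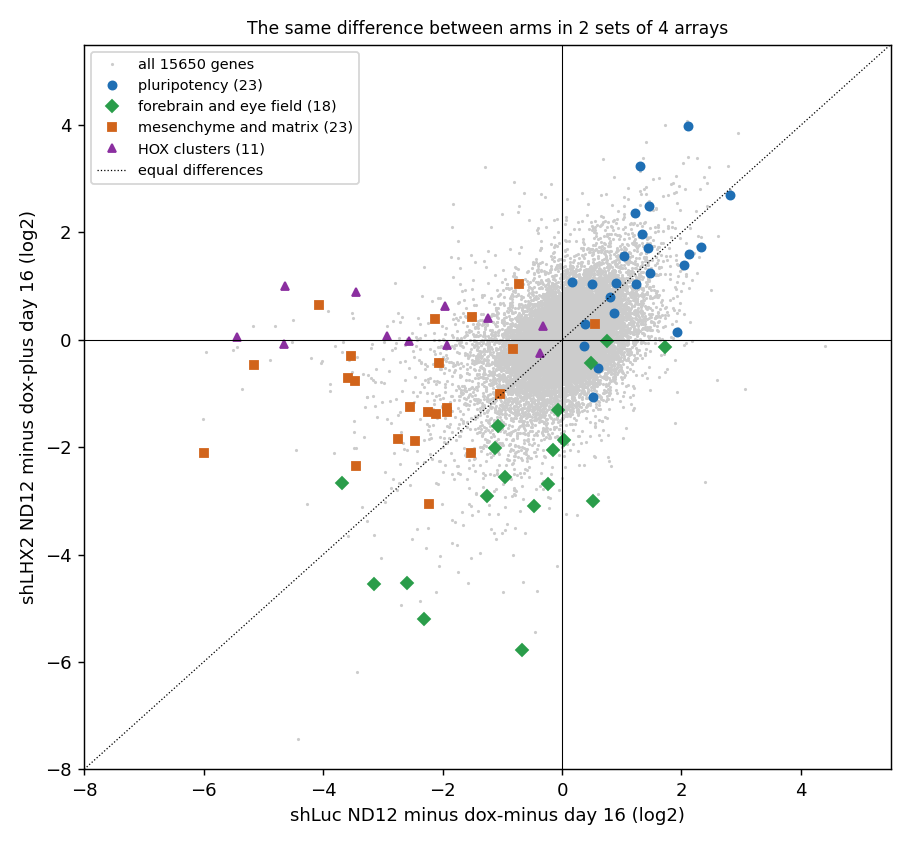
Log2 difference of shLuc ND12 minus dox-minus day 16 (horizontal axis) against shLHX2 ND12 minus dox-plus day 16 (vertical axis) for all 15650 genes, with 4 lists in colour and a dotted line of equal differences. Pluripotency genes lie up and to the right, with medians of 1.23 on the horizontal and 1.25 on the vertical axis, while most HOX genes lie left near 0 on the vertical axis, with medians of -2.56 on the horizontal and 0.07 on the vertical axis.

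The list values of the other contrast stand beside those of the controls as follows. Their background is 14.7% of all genes called higher and 14.3% called lower in shLHX2 ND12. For the difference between contrasts it is 10.0% of all genes. Pluripotency genes were higher in 16 and lower in 1 of 23 in shLHX2 ND12 (median 1.25, beside 1.23 in the controls), and for 4 members the difference between contrasts was called. Nodal pathway genes were higher in 5 and lower in 0 of 8 (median 1.12), with 1 difference called, a share near that of all genes. In the metallothionein list 8 of 9 were higher (median 2.23). Forebrain and eye field genes were lower in 15 and higher in 0 of 18 (median -2.61, beside -0.57 in the controls), with 13 differences called. HOX genes were higher in 2 and lower in 0 of 11 (median 0.07, beside -2.56 in the controls), with 9 differences called. Mesenchyme and matrix genes were lower in 12 and higher in 1 of 23 (median -1.01, 12 differences), mesoderm regulators lower in 5 and higher in 1 of 21 (median -0.19, 11 differences), and stress genes higher in 5 and lower in 3 of 15 (median 0.39, 10 differences).

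The levels behind those differences were as follows. HOXB8 was detected on none of the shLHX2 ND12 and dox-plus day 16 arrays, and its difference between contrasts was -5.49 (limma adjusted p = 9.11e-07). HOPX read 5.45 and 5.72 in shLHX2 ND12, against 6.96 and 7.13 in dox-plus day 16. COL6A3 read 6.61 and 6.45 in shLHX2 ND12, against 6.99 and 7.01 in dox-plus day 16. For HOXB8, HOPX and COL6A3 the dox-minus day 16 arrays read above all other late arrays. HES5 was highest in dox-plus day 16, at 6.32 and 6.72 in shLHX2 ND12, against 13.90 and 14.01 in dox-plus day 16 (-7.43, beside -4.42 in the controls). H19 read 10.69 and 11.55 in shLHX2 ND12, against 11.02 and 11.44 in dox-plus day 16, so that among the late groups its low value was found in dox-minus day 16, and among the day 4 groups in dox-plus.

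Calls of several named genes were lost when an array was left out, which also leaves 1 array in a group and fewer residual degrees of freedom. For the following genes this happened with more than 1 choice of array. EOMES, a T-box gene of mesendoderm, stood at 1.12 ± 0.27, and at 1.10 without shLuc replicate 1 (limma adjusted p = 0.0749) and 1.13 without shLuc replicate 2 (limma adjusted p = 0.063). TFAP2A, a factor of neural border and surface ectoderm, stood at -1.43 ± 0.36, and at -1.10 without dox-minus replicate 1 (limma adjusted p = 0.0879), -1.44 without shLuc replicate 1 (limma adjusted p = 0.0761) and -1.42 without shLuc replicate 2 (limma adjusted p = 0.072). FGF2, the FGF ligand of stem cell culture, stood at 1.28 ± 0.31, and at 1.02 without dox-minus replicate 1 (limma adjusted p = 0.0722), 1.23 without shLuc replicate 1 (limma adjusted p = 0.0767) and 1.34 without shLuc replicate 2 (limma adjusted p = 0.0525). RUNX1, a blood regulator, stood at -1.41 ± 0.32, and at -1.04 without dox-minus replicate 1 (limma adjusted p = 0.0623) and -1.18 without shLuc replicate 1 (limma adjusted p = 0.0867). STRA6, the retinol receptor gene, stood at -0.90 ± 0.24, and at -0.72 without dox-minus replicate 1 (limma adjusted p = 0.112) and -0.65 without shLuc replicate 1 (limma adjusted p = 0.183). RSPO2, a WNT enhancer, stood at -1.07 ± 0.28, and at -0.98 without dox-minus replicate 2 (limma adjusted p = 0.0508) and -0.69 without shLuc replicate 1 (limma adjusted p = 0.183). MCM5, a replication helicase subunit, stood at 0.94 ± 0.22, and at 0.68 without dox-minus replicate 2 (limma adjusted p = 0.0533), 0.99 without shLuc replicate 1 (limma adjusted p = 0.0531) and 0.89 without shLuc replicate 2 (limma adjusted p = 0.0696). EGLN3, the prolyl hydroxylase given above, stood at 1.09 ± 0.24, and at 0.82 without dox-minus replicate 1 (limma adjusted p = 0.0553) and 1.09 without shLuc replicate 1 (limma adjusted p = 0.0533).

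For other genes it happened with 1 choice of array. LEF1, a WNT effector, stood at -1.31 ± 0.29, and at -1.15 without shLuc replicate 2 (limma adjusted p = 0.0658). MT1X, a metallothionein, stood at 1.05 ± 0.23, and at 0.84 without shLuc replicate 2 (limma adjusted p = 0.0816). ESAM, an endothelial adhesion molecule, stood at -1.15 ± 0.26, and at -0.86 without shLuc replicate 2 (limma adjusted p = 0.0874). ALDH1A3, a retinaldehyde dehydrogenase, stood at -1.25 ± 0.29, and at -0.90 without shLuc replicate 2 (limma adjusted p = 0.0953). DUSP6, a phosphatase of the FGF cascade, stood at -0.98 ± 0.21, and at -0.89 without shLuc replicate 2 (limma adjusted p = 0.0544). MFNG, a Notch-modifying glycosyltransferase, stood at -0.999 ± 0.21, and at -0.94 without shLuc replicate 1 (limma adjusted p = 0.0571).

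A last set also lost its call under other settings with all arrays in. TOP2A, the mitotic topoisomerase gene, stood at 1.003 ± 0.32, and at 0.56 without dox-minus replicate 1 (limma adjusted p = 0.279), 0.95 without shLuc replicate 1 (limma adjusted p = 0.177) and 1.05 without shLuc replicate 2 (limma adjusted p = 0.126). HHEX, a homeobox gene of anterior endoderm, stood at 0.75 ± 0.25, and at 0.71 without dox-minus replicate 1 (limma adjusted p = 0.146), 0.78 without dox-minus replicate 2 (limma adjusted p = 0.079) and 0.40 without shLuc replicate 1 (limma adjusted p = 0.384). APOA2, an apolipoprotein, stood at 0.80 ± 0.25, and at 0.36 without dox-minus replicate 1 (limma adjusted p = 0.319), 0.91 without shLuc replicate 1 (limma adjusted p = 0.108) and 0.70 without shLuc replicate 2 (limma adjusted p = 0.195). MBP, a myelin protein that many cells express in other forms, stood at -0.71 ± 0.17, and at -0.65 without dox-minus replicate 1 (limma adjusted p = 0.0552) and -0.64 without shLuc replicate 1 (limma adjusted p = 0.0929). SLC1A3, a glial glutamate transporter, stood at -0.76 ± 0.24, and at -0.48 without dox-minus replicate 2 (limma adjusted p = 0.184), -0.65 without shLuc replicate 1 (limma adjusted p = 0.209) and -0.87 without shLuc replicate 2 (limma adjusted p = 0.0884). SLC2A1, the glucose transporter of most cells, stood at -0.70 ± 0.17, and at -0.59 without dox-minus replicate 2 (limma adjusted p = 0.0554), -0.71 without shLuc replicate 1 (limma adjusted p = 0.0765) and -0.69 without shLuc replicate 2 (limma adjusted p = 0.0743). With all arrays in, the compared arrays fitted alone ended the call of each of these 6 genes, and other settings that ended that of HHEX were array weights, cyclic loess, a larger offset, no background correction, no filter, the replicate block, a trended and robust fit, and the series value table.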

How the data were processed

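The 12 bead arrays hold RNA of H9 cells in 6 groups of 2, described by the labels as biological duplicates. Per the labels' protocols, total RNA was purified with RNeasy and amplified to biotin-labelled cRNA with MessageAmp. The deposited intensity values are the mean bead signal per probe with no scaling between arrays, and each array file gives a detection p-value per probe, per the file headers. None of the sources used here names the software that made them. Array medians lay between 73.1 and 89.2.

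Signals were background-corrected with limma's neqc (offset 16, with the negative controls estimated through the detection p-values), then quantile normalized and log2 transformed. Probes with a detection p under 0.01 on each array of any group stayed in (21526 of 47227), and a gene was its kept probe with the highest mean (4013 genes had several). Of the probes, 35670 were matched to RefSeq by Entrez identifier, 8287 kept the name in the file and 3270 had no identifier. Limma 3.58.1 in R 4.3.3 fitted 6 group means (6 residual degrees of freedom, prior 5.93), with Benjamini-Hochberg adjustment.

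The arrays, the 32 lists (17 of cell types, 15 of pathways and states) and the tests were chosen with earlier results of these data known. Named genes are LHX2, PAX6, SOX2, POU5F1, NANOG and OTX2, the 12 called genes highest and lowest, and up to 4 called members of each list with the largest change, or the largest where none was called. A few genes chosen this way are not reported here. Members named beyond that were chosen after their values were seen. On simulated data for shLuc ND12 against dox-minus day 16, 44% of genes changed by 1 on the log2 scale and 100% of those changed by 2 were recovered, and 5.26% of calls were false. In the series value table, used as an alternative, the 2 shLuc columns are interchanged, and 10 of 12 columns equal their own array within 0.06.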

Additional observations from a re-analysis of the deposited data

Results flagged for a closer look

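For the genes named here, the log2 difference of shLuc ND12 minus dox-minus day 16 was not the same as that of shLHX2 ND12 minus dox-plus day 16, by limma's test of the difference between them over 15650 genes at an adjusted p under 0.05. The value given is the first difference less the other, so a negative value means that shLuc ND12 stood lower against its day 16 group than shLHX2 ND12 did. Where a gene was detected in no array of a group the value depends on the offset of the background correction and is no bound. LHX2 was manipulated in the other 4 arrays, and day, construct and arm cannot be told apart.

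Among forebrain, neural and neuronal genes it was 2.89 for LHX2, 2.17 for PAX6, 1.58 for SOX2, 3.01 for HES5, 1.39 for SIX6, 1.93 for RAX, -2.02 for AQP1, 1.76 for RSPO3, 2.40 for OLIG2, 2.58 for NEUROG2 and -1.26 for PRPH. Among pluripotency and streak genes it was -1.14 for POU5F1, -1.94 for NANOG, -1.87 for PRDM14, 1.99 for SP5 and 1.08 for TBXT. Among HOX genes it was -5.49 for HOXB8, -4.58 for HOXC8, -5.65 for HOXB5 and -4.34 for HOXB2. Among mesenchyme, mesoderm, muscle and blood vessel genes it was -3.89 for COL3A1, -4.70 for COL6A3, -4.72 for DCN, -2.86 for COL5A1, -4.44 for PITX1, -3.64 for PDGFRA, -3.12 for APLNR, -2.17 for MYL4, -1.75 for ACTC1, -1.54 for RUNX1 and -1.34 for ENG. Among crest, endoderm and surface ectoderm genes it was -2.20 for SNAI2, -2.40 for MSX1, -1.73 for TFAP2A, -1.75 for APOA1, -2.04 for KRT17, -3.57 for GATA2 and -1.68 for KRT8. Among signalling genes it was -3.63 for BMPER, -2.43 for SMAD6, -2.90 for BAMBI, -2.81 for BMP4, 1.60 for WNT5B, -4.50 for HEY2, 2.59 for MFNG, 1.79 for ETV5, -1.19 for SPRED2, 1.71 for DUSP6 and -1.84 for STRA6. Among genes of cell cycle, stress, interferon, hypoxia, early response and metal binding it was 1.09 for KIF11, 1.80 for TOP2A, -1.47 for CDKN1A, -2.09 for DDIT4, -2.39 for TRIB3, -2.67 for IFI6, -4.35 for MX1, -1.68 for ISG15, -1.98 for IRF9, -2.03 for NDRG1, -1.53 for VEGFA, -1.83 for JUNB, -1.98 for MT1H and -2.28 for MT1G. Among imprinted genes and genes that switch between cultures it was 4.51 for H19, -5.75 for IGF2, -5.32 for INS-IGF2, -2.39 for NNAT, 2.49 for DLK1, 3.98 for ZNF558, 3.35 for IAH1, 1.57 for NLRP2 and 5.04 for TMSB15A. Among leading genes outside the lists it was -0.91 for CNMD, -4.55 for HOPX, -5.29 for EGFLAM, -5.43 for CRHBP, -4.52 for NNMT and -5.06 for SRPX2.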

How the results depend on the processing

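Of 131 named genes 128 were called, and 106 were called in every alternative. Most were named because they were called with large differences, so these counts follow largely from that choice. Over all genes 24.7% were called, and the counts of named genes do not measure how stable the other calls are. The number of genes called between shLuc ND12 and dox-minus day 16, 3873, was 1839 at an adjusted p under 0.01, 1845 with a log2 difference over 1 as well, and 1544 to 4258 when 1 array was left out. For shLHX2 ND12 against dox-plus day 16, 4549 became 2609, 2327 and 2623 to 3131 under the same changes. The 1569 genes of the difference between the contrasts became 599 at an adjusted p under 0.01 and 671 to 2642 with 1 array left out. Other backgrounds, scalings, filters, probe rules and weights kept these counts within 1.5 times. OTX2, not called, turned to -0.13 with the mean of its kept probes. With the replicate number as a block the counts were 3723, 4443 and 1461, and of the named genes HHEX and TOP2A lost their calls. The numbers were not shown to pair the arrays, since the replicate differences correlated at -0.08 between shLuc ND12 and dox-minus day 16 and at 0.42 between shLHX2 ND12 and dox-plus day 16. A group left with a lone array was given the spread of the rest. The duplicates of shLuc ND12 and dox-minus day 16 differed in spread, with array weights of 2.04 and 0.553, and 2 arrays a group limit every value. The causes of these changes were not tested.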
